A study of Drosophila melanogaster with 6 samples.

Results

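The genes described here encode the 4 giant proteins of the fly sarcomere that are built from long rows of immunoglobulin and fibronectin domains. They are sls (Sallimus, FBgn0086906), bt (Projectin, FBgn0005666), Unc-89 (Obscurin, FBgn0053519) and Strn-Mlck (Stretchin-Mlck, FBgn0265045). They were picked by gene symbol for what they encode, with earlier results of these data known, out of the 17611 genes of the count table. All 4 were matched and passed the filter on low counts. RNA was sequenced from indirect flight muscle (IFM) of pupae at 72 hours after puparium formation (APF), staged at 25°C, of the genotypes Act88F-Gal4;UAS-Antpnls (here UAS-Antp, 3 libraries) and Act88F-Gal4;UAS-GFPnls (here UAS-GFP, 3 libraries). Both genotypes carry Act88F-Gal4, a driver taken from a flight muscle actin gene, which drove the Hox protein Antp or green fluorescent protein in differentiating IFM. Each library was made from polyA RNA of the hand-dissected IFM of 6 to 8 pooled pupae. The comparison asks what sustained Antp does to gene expression in developing flight muscle.

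Connecting filaments tie the thick filament to the Z-disc, the end plate of the sarcomere, and give insect flight muscle its high resting stiffness, on which stretch activation and fast wing beats depend. Sallimus is anchored in the Z-disc and reaches to the thick filament, while Projectin runs on from it and carries a kinase domain. Obscurin sits at the M-line, the middle of the thick filament, and Stretchin lies along the thick filament in the A-band. In tubular muscles, such as those of the leg, the same genes are used in other isoforms, and there Projectin spans most of the A-band.

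Total counts were 69673609, 77781458 and 63217976 in the UAS-Antp libraries, and UAS-Antp values stand in that order below, since the columns of this genotype could not be tied to numbered replicates. UAS-GFP replicates 1, 2 and 3 held 64485309, 47460809 and 59754817 counts. Antp itself had 716673, 1092524 and 517985 counts in the UAS-Antp libraries, against 70, 33 and 66 with UAS-GFP. The 4 flight muscle markers summed to 25300 to 28600 counts per 1000000 (CPM, scaled between libraries by the trimmed mean of M values, TMM) with UAS-Antp and to 204000 to 232000 CPM with UAS-GFP. Most of the UAS-Antp sum was Mhc (21200 to 24200 CPM, against 103000 to 120000 with UAS-GFP), a myosin heavy chain that other muscles also use. The markers more particular to IFM were far lower with UAS-Antp: Act88F stood at 1200 to 1680 CPM with UAS-Antp and 71100 to 80300 CPM with UAS-GFP, fln at 2090 to 2320 CPM with UAS-Antp and 25800 to 33300 CPM with UAS-GFP, and TpnC4 at 414 to 475 CPM with UAS-Antp and 3960 to 5340 CPM with UAS-GFP. The 3 tubular muscle markers summed to 11400 to 14200 CPM with UAS-Antp and to 90.5 to 121 CPM with UAS-GFP. With TMM scaling, some markers of other tissues moved in the same direction as the members. Trachea markers summed to 36.2 to 44.3 CPM with UAS-Antp and 107 to 125 CPM with UAS-GFP. Myoblast markers summed to 18.5 to 23.1 CPM with UAS-Antp and 30.9 to 33.1 CPM with UAS-GFP. The tendon marker sr stood at 5.18 to 5.86 CPM with UAS-Antp and 7.01 to 10.1 CPM with UAS-GFP. Before scaling, the highest count of sr was 645 with UAS-Antp and 339 with UAS-GFP. That of the myoblast marker zfh1 was 2453 with UAS-Antp and 1305 with UAS-GFP, so the direction of sr and zfh1 depended on the scaling. For the trachea markers, the highest unscaled count of trh was 1146 with UAS-Antp and 881 with UAS-GFP. That of btl was 4367 with UAS-Antp and 4114 with UAS-GFP, so neither was lower with UAS-Antp before scaling. Fat body markers (268 to 410 CPM with UAS-Antp and 224 to 393 CPM with UAS-GFP), neuron markers (45.8 to 72.0 with UAS-Antp and 46.1 to 53.5 with UAS-GFP) and hemocyte markers (9.54 to 17.8 with UAS-Antp and 6.69 to 10.9 with UAS-GFP) overlapped between the genotypes. The part of these markers in the results below was not tested. The GEO labels call the samples independent replicates and the study's methods call them technical, so p-values measure the spread between these libraries.

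With TMM scaling, all 4 giant protein genes fell with UAS-Antp, in the order Strn-Mlck, Unc-89, bt and sls. Strn-Mlck was 10.5-fold lower, Unc-89 6.54-fold, bt 3.49-fold and sls 3.34-fold (3 libraries each). For sls and bt the call depended on the scaling: with library totals their log2 fold changes were -0.43 (adjusted P = 0.0204 by edgeR) and -0.49 (adjusted P = 0.0119), which did not pass 0.001. Of the 9546 genes tested, 19.3% fell and 35.6% changed in either direction at an adjusted P under 0.001 in edgeR's quasi-likelihood F-test (Benjamini-Hochberg adjusted), and these shares are the background for the count of 4. The 3 UAS-Antp libraries lay below the 3 UAS-GFP libraries in TMM-scaled CPM for all 4 genes, which holds for 30.6% of all genes tested. In bulk tissue, fewer muscle nuclei or cells and less RNA from each cannot be told apart.

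**Figure D1:**
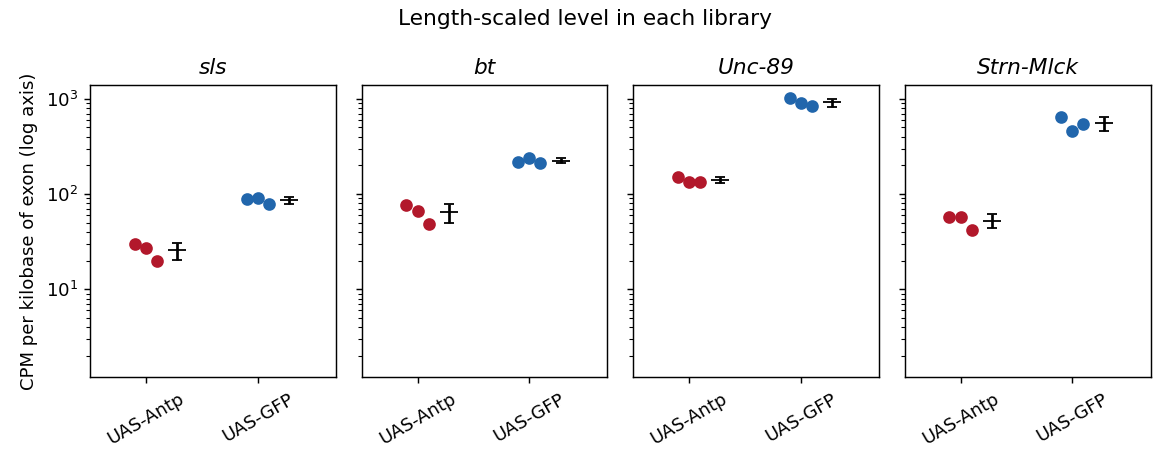
Level of each giant protein gene in CPM per kilobase of exon (TMM-scaled, log axis), with 1 point per library and bars for the mean and SD of 3 libraries. In each panel the UAS-Antp libraries (red) lie below the UAS-GFP libraries (blue), with means from 25.6 (sls) to 140 (Unc-89) in UAS-Antp and from 85.7 (sls) to 916 (Unc-89) in UAS-GFP.

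sls lies on chromosome arm 3L at 2039681-2115611 (dm6, minus strand), with 58996 bases of exon in 42 blocks. It had 188086, 199867 and 118769 counts in the UAS-Antp libraries, against 207476, 171609 and 167350 counts in UAS-GFP replicates 1, 2 and 3. Before scaling, these counts overlapped between the genotypes. Scaled by TMM, sls stood at 1759, 1603 and 1175 CPM with UAS-Antp, against 5196, 5369 and 4598 CPM with UAS-GFP. The highest UAS-Antp library then stayed well under the lowest UAS-GFP replicate, and the library of 63217976 counts was the lowest of all. The mean was 1513 ± 303 CPM with UAS-Antp and 5054 ± 404 CPM with UAS-GFP (SD, n = 3 each), a log2 fold change of -1.74 (SE 0.16; adjusted P = 4.77e-06 in the same edgeR test).

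bt lies on chromosome 4 at 724400-776474 (plus strand), with 28019 bases of exon in 49 blocks. Its counts were 232653, 230998 and 138332 with UAS-Antp and 245711, 213416 and 218520 with UAS-GFP. As for sls, these unscaled counts overlapped. In TMM-scaled CPM, bt stood at 2176, 1853 and 1368 with UAS-Antp, against 6154, 6676 and 6004 with UAS-GFP. The genotypes were apart, and the lowest value again came from the UAS-Antp library of 63217976 counts. The mean was 1799 ± 407 CPM with UAS-Antp and 6278 ± 353 CPM with UAS-GFP (SD, n = 3 each), a log2 fold change of -1.80 (SE 0.16; adjusted P = 5.26e-06 in the same edgeR test).

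Unc-89, which the newer Ensembl annotation names Obsc, lies on 2R at 23995543-24014254 (minus strand), with 13261 bases of exon in 39 blocks, the shortest of the 4. It had 214729, 220872 and 181480 counts with UAS-Antp, against 536653, 380005 and 404477 counts with UAS-GFP. Here the genotypes were apart before any scaling. In TMM-scaled CPM it stood at 2009, 1772 and 1795 with UAS-Antp, against 13440, 11890 and 11110 with UAS-GFP. The library of 69673609 counts was the highest of the UAS-Antp libraries, and the other two were close together. The mean was 1859 ± 130 CPM with UAS-Antp and 12147 ± 1190 CPM with UAS-GFP (SD, n = 3 each), a log2 fold change of -2.71 (SE 0.13; adjusted P = 3.89e-08 in the same edgeR test).

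Strn-Mlck lies on 2R at 15946933-15989498 (minus strand), with 32768 bases of exon in 38 blocks. Its counts were 202834, 232413 and 140337 with UAS-Antp and 838846, 486223 and 653268 with UAS-GFP. These unscaled counts did not overlap either, and the spread among the UAS-GFP replicates was wide. In TMM-scaled CPM it stood at 1897, 1864 and 1388 with UAS-Antp, against 21010, 15210 and 17950 with UAS-GFP. UAS-GFP replicate 1 was the highest of the 6 libraries, and the UAS-Antp library of 63217976 counts the lowest. The mean was 1717 ± 285 CPM with UAS-Antp and 18056 ± 2900 CPM with UAS-GFP (SD, n = 3 each), a log2 fold change of -3.39 (SE 0.18; adjusted P = 7.93e-08 in the same edgeR test). A lower fold change than that of Strn-Mlck was found for 2.05% of all genes tested, against 4.70% for Unc-89, 11.4% for bt and 12.1% for sls.

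The fold changes depended on how libraries were scaled. TMM factors were 1.53 to 1.60 in UAS-Antp and 0.609 to 0.674 in UAS-GFP, and the median log2 fold change of all genes tested was 0.17 with TMM and 1.48 with library totals. With library totals, where sls and bt no longer passed 0.001, Unc-89 (-1.39, adjusted P = 6.48e-07 by edgeR) and Strn-Mlck (-2.07, adjusted P = 2.80e-07) still passed, where 7.18% of all genes fell. A change of scaling shifts all genes by nearly the same amount, so differences from the median gene are fixed by construction and say nothing of which scaling holds. With TMM these differences were -1.91 for sls, -1.97 for bt, -2.88 for Unc-89 and -3.56 for Strn-Mlck on the log2 scale.

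**Figure D2:**
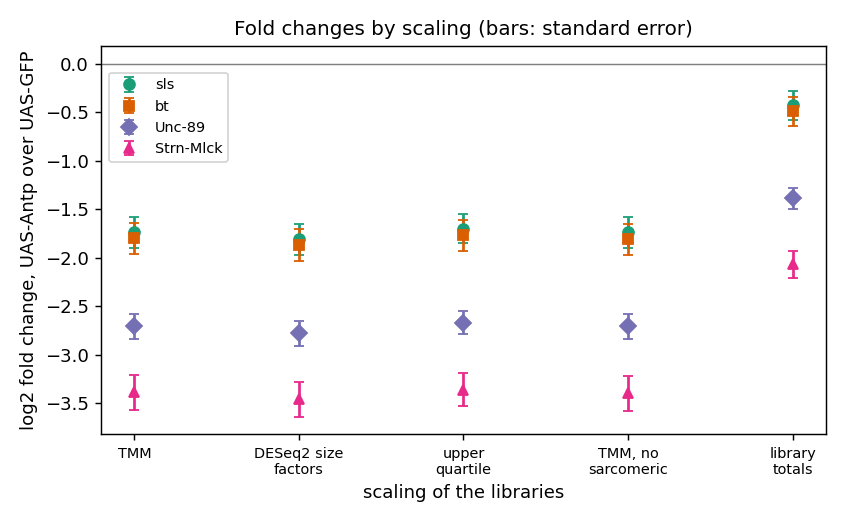
Log2 fold change of each giant protein gene, UAS-Antp over UAS-GFP, under 5 scalings of the libraries (bars are standard errors). The values are smallest with library totals, between -0.43 (sls) and -2.07 (Strn-Mlck), and lie between -1.74 (sls) and -3.39 (Strn-Mlck) with TMM.

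Levels of different genes can be compared only per length, here as TMM-scaled CPM per kilobase of the union of a gene's exons. Strn-Mlck stood at 52.4 ± 8.69 with UAS-Antp and 551 ± 88.5 with UAS-GFP (SD, n = 3 each). For Unc-89 the level was 140 ± 9.83 with UAS-Antp and 916 ± 89.4 with UAS-GFP. The level of bt was 64.2 ± 14.5 with UAS-Antp and 224 ± 12.6 with UAS-GFP, and that of sls was 25.6 ± 5.13 with UAS-Antp and 85.7 ± 6.86 with UAS-GFP. Unc-89 was thus the highest per length and sls the lowest in both genotypes, with each of these apart from its neighbour in every library. The middle places changed hands when the genes were compared within each library. With UAS-Antp bt stood above Strn-Mlck in all 3 libraries, though their ranges over the libraries overlapped. With UAS-GFP Strn-Mlck stood above bt in all 3 replicates.

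That order rests on the exon length used. Ensembl release 115 lists 10 Strn-Mlck transcripts, of which 4 encode 7905 to 8255 codons and 6 encode 576 to 1918 codons from other starts, so no single transcript holds all its exons. With the longest transcript as the length (an alternative chosen after seeing the data), Strn-Mlck stood at 66.9 with UAS-Antp and 704 with UAS-GFP, and the ratio of Strn-Mlck to bt per length was 0.940, 1.08 and 1.09 in the UAS-Antp libraries, against 3.68, 2.46 and 3.22 in UAS-GFP. With the union of exons it was 0.745, 0.860 and 0.867 with UAS-Antp, against 2.92, 1.95 and 2.56 with UAS-GFP. The order of Strn-Mlck and bt therefore turned with the length chosen in the UAS-Antp libraries of 77781458 and 63217976 counts. It did not turn in the UAS-Antp library of 69673609 counts or in UAS-GFP. sls has 13 transcripts of 4796 to 18468 codons, of which 10 reach at least 80% of the longest coding length; its short forms include the protein known as Kettin. bt has 5 transcripts of 8408 to 8933 codons and Unc-89 has 6 of 3310 to 4218 codons. The counts are summed over all transcripts of a gene, so a change in the isoforms used was not measured here.

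**Figure D3:**
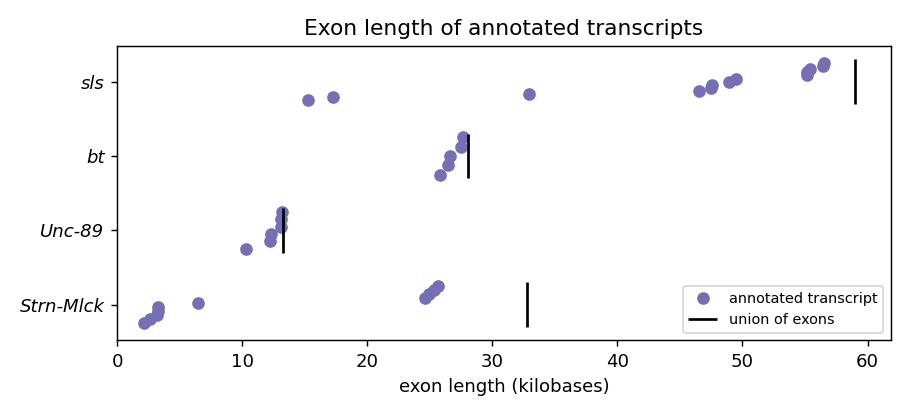
Exon length in kilobases of each annotated transcript (points) and of the union of all exons (bar) of the 4 genes in Ensembl release 115. Strn-Mlck splits into 4 long and 6 short transcripts, while all 5 bt transcripts are of nearly equal length.

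Together the 4 genes took 1.09 ± 0.15% of all counts with UAS-Antp and 2.63 ± 0.21% with UAS-GFP (SD, n = 3 each). Their summed level was 7841, 7093 and 5727 TMM-scaled CPM with UAS-Antp, against 45800, 39144 and 39664 with UAS-GFP. The make-up of that sum differed too. These are shares of counts not divided by exon length, so they do not rank the genes by level. Strn-Mlck held 24.9 ± 1.21% of the giant protein counts with UAS-Antp and 43.4 ± 3.88% with UAS-GFP, and was the largest share in each UAS-GFP replicate. Per kilobase of exon, Unc-89 (916) stood above Strn-Mlck (551) with UAS-GFP. sls held 21.8 ± 1.16% with UAS-Antp and 12.2 ± 1.31% with UAS-GFP, and bt 25.9 ± 1.96% with UAS-Antp and 15.2 ± 1.85% with UAS-GFP. Unc-89 held 27.3 ± 3.48% with UAS-Antp and 29.2 ± 1.20% with UAS-GFP, and only its shares overlapped between the genotypes.

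A ratio of 2 genes within a library does not depend on how libraries are scaled, so the genes were also compared as ratios. Each difference was tested with a two-sided exact permutation test of 3 libraries against 3, whose smallest possible p is 0.1, so no ratio could reach 0.05. The bt to sls count ratio did not separate the genotypes: it was 1.24, 1.16 and 1.16 in the UAS-Antp libraries, against 1.18, 1.24 and 1.31 in UAS-GFP. The log2 ratio differed by -0.07 (SE 0.051; exact permutation p = 0.2, adjusted over 14 ratios 0.2). Strn-Mlck and Unc-89 both lay lower against this pair. The ratio of Strn-Mlck to sls was 1.08, 1.16 and 1.18 with UAS-Antp, against 4.04, 2.83 and 3.90 with UAS-GFP, a difference of -1.64 on the log2 scale (SE 0.17; exact permutation p = 0.1, adjusted 0.14). That of Unc-89 to sls was 1.14, 1.11 and 1.53 with UAS-Antp, against 2.59, 2.21 and 2.42 with UAS-GFP, a difference of -0.95 (SE 0.16; exact permutation p = 0.1, adjusted 0.14). In both ratios every UAS-Antp library lay below every UAS-GFP replicate. Strn-Mlck to Unc-89 was 0.945, 1.05 and 0.773 with UAS-Antp, against 1.56, 1.28 and 1.62 with UAS-GFP, a difference of -0.69 (SE 0.17; exact permutation p = 0.1, adjusted 0.14), so Strn-Mlck lay lower against Unc-89 as well. Against bt, the log2 ratio differed by -1.57 (SE 0.19) for Strn-Mlck and by -0.88 (SE 0.18) for Unc-89, with the same exact permutation p of 0.1.

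**Figure D4:**
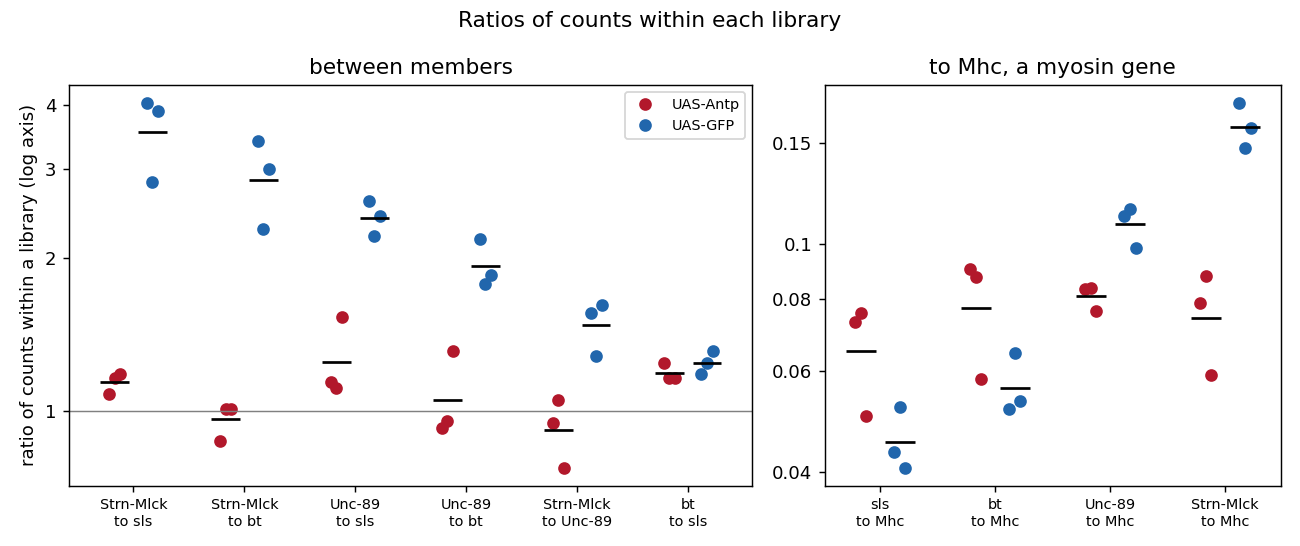
Ratio of the counts of 2 genes within each library on log axes, between members (left) and to the myosin gene Mhc (right), with UAS-Antp in red, UAS-GFP in blue and the geometric mean of 3 libraries as a line. bt to sls overlaps between the genotypes (1.16 to 1.24 in UAS-Antp and 1.18 to 1.31 in UAS-GFP), while Strn-Mlck to sls does not (1.08 to 1.18 in UAS-Antp and 2.83 to 4.04 in UAS-GFP).

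The members were also set against Mhc, the myosin heavy chain of the thick filament, and Actn, the alpha-actinin of the Z-disc, which both fell (log2 fold changes of -2.29 and -2.58, adjusted P = 1.30e-07 and 4.42e-08 in the edgeR test, and of -0.97 and -1.26 with library totals). Per Mhc count, Strn-Mlck stood at 0.0788, 0.0880 and 0.0591 with UAS-Antp, against 0.176, 0.147 and 0.159 with UAS-GFP, a log2 difference of -1.11 (SE 0.19; exact permutation p = 0.1, adjusted 0.14). Unc-89 stood at 0.0834, 0.0836 and 0.0764 with UAS-Antp, against 0.112, 0.115 and 0.0983 with UAS-GFP, a log2 difference of -0.42 (SE 0.082; exact permutation p = 0.1, adjusted 0.14). Neither gene overlapped between the genotypes. The ratios of sls and bt to Mhc pointed the other way, with log2 differences of 0.53 (SE 0.22) and 0.46 (SE 0.23), but overlapped between the genotypes (exact permutation p = 0.2). Against Actn, sls and bt lay higher with UAS-Antp by 0.82 (SE 0.22) and 0.75 (SE 0.24) with no overlap, Strn-Mlck lay lower by 0.82 (difference -0.82, SE 0.17) with no overlap, and Unc-89 overlapped (-0.13, SE 0.076), with exact permutation p = 0.1 for the first 3 and 0.2 for Unc-89. Of the 14 ratios, which share the same few genes, 10 did not overlap between the genotypes. For single genes in TMM-scaled CPM, 68.3% of all genes tested did not overlap. The share among ratios of other gene pairs was not computed, so the count of 10 has no background of its own kind.

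The spread among replicates was uneven. Over 2710 genes with an average log2 CPM of at least 5, the median SD of log2 CPM was 0.13 in each genotype. Within UAS-Antp the SD was 0.31 for sls, 0.34 for bt, 0.10 for Unc-89 and 0.25 for Strn-Mlck. Within UAS-GFP it was 0.12 for sls, 0.08 for bt, 0.14 for Unc-89 and 0.23 for Strn-Mlck. Deviations here are the log2 CPM of a UAS-Antp library minus the mean of the other UAS-Antp libraries. For the library of 63217976 counts they were -0.52 for sls, -0.55 for bt and -0.44 for Strn-Mlck, but only -0.07 for Unc-89. Lower deviations in that library were found for 2.51%, 2.18% and 3.76% of genes for the first 3, and for 33.7% for Unc-89. Exon length moved with this. The median deviation of that library was 0.12 over 935 genes under 2 kilobases of exon, -0.10 over 526 genes of 5 to 10 kilobases and -0.16 over 140 genes of 10 to 20 kilobases. Over the 18 genes of at least 20 kilobases, 3 of them members and too few for a firm value, it was -0.29. In the library of 69673609 counts the same length classes had medians of -0.02, 0.10, 0.21 and 0.28, in the opposite direction. The part of this in the members' spread was not tested. Without the library of 63217976 counts all 4 genes still passed 0.001, and over the 6 fits that each left out 1 library the log2 fold changes ran from -1.86 to -1.59 for sls, -1.96 to -1.64 for bt, -2.78 to -2.64 for Unc-89 and -3.54 to -3.26 for Strn-Mlck. The median log2 fold change of the 18 genes of at least 20 kilobases was -0.15, and of the 15 that are no members 4 rose, 5 fell and 6 did not pass the test. It was -1.27 for the 935 genes under 2 kilobases and -0.29 for the 1091 genes of 2 to 5 kilobases. For the 526 genes of 5 to 10 kilobases it was -0.01, and for the 140 genes of 10 to 20 kilobases -0.18. All these classes hold only genes with an average log2 CPM of at least 5. Each median lay below the 0.17 of all genes tested, which include genes of lower level.

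Genes beside the members were listed to see whether their counts could be mixed with those of the members. No gene shares exon bases with a member on the same strand, and counting was by strand. On the 3L arm, zormin, an immunoglobulin protein of the Z-disc and M-line, ends 1855 bases upstream of sls on the same strand. It had 129031, 127206 and 111927 counts with UAS-Antp, against 39659, 29416 and 28688 with UAS-GFP. Its log2 fold change was 0.30 (SE 0.12; adjusted P = 0.0503 by edgeR), which did not pass, and 1.62 (adjusted P = 6.33e-07) with library totals. The zormin to sls count ratio was 0.686, 0.636 and 0.942 with UAS-Antp, against 0.191, 0.171 and 0.171 with UAS-GFP, with no overlap. Inside sls, on the opposite strand and sharing 1089 exon bases with it, lies asRNA:CR42860 (3L, 2088166-2089626), singled out after its values were seen. It had 313, 277 and 76 counts with UAS-Antp and 0 counts in each UAS-GFP replicate (adjusted P = 0.000229 by edgeR). Within 20000 bases of the members, 2 of the genes tested around sls, 1 around bt, 15 around Unc-89 and 15 around Strn-Mlck gave 1, 0, 0 and 1 that rose and 0, 0, 4 and 0 that fell with TMM. Of all genes tested, 16.3% rose and 19.3% fell, and counts this small were not set apart from those shares.

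Genes of the sarcomere, light chain phosphorylation, splicing and fibre regulation were taken as 6 lists of 50 genes in all, and all 50 passed the filter. The lists were chosen with earlier results of these data known, so their counts are a description. Their genes are called partner genes below, but a link of each to the 4 members was not tested. With UAS-Antp 12 rose, 27 fell and 11 did not pass the test (78.0% called, against 35.6% of all genes tested, of which 16.3% rose and 19.3% fell), with a median log2 fold change of -0.80 beside 0.17 for all genes tested. With library totals 24 rose and 17 fell, where 52.1% of all genes rose and 7.18% fell, with a median of 0.52 beside 1.48. The listed thin filament genes had the lowest median of the 6 lists: 8 of 11 fell and 3 rose, with a median of -2.14, and with library totals 6 fell and 3 rose. This list holds Act88F and TpnC4 but not the tubular muscle markers Act79B, TpnC41C and TpnC73F, so it does not stand for all thin filament genes. Act79B stood at 11200 to 13900 CPM with UAS-Antp and 70.1 to 96.9 CPM with UAS-GFP. TpnC41C stood at 82.4 to 113 CPM with UAS-Antp and 8.14 to 14.4 CPM with UAS-GFP, and TpnC73F at 147 to 213 CPM with UAS-Antp and 9.07 to 16.5 CPM with UAS-GFP. Among the 11 listed, the largest fall was that of the flight muscle actin Act88F, the gene whose regulatory region the driver uses (-5.75, SE 0.18, adjusted P = 4.91e-09 by edgeR, and -4.43 with library totals), and the largest rise that of tmod, which caps thin filament ends (2.27, SE 0.10, adjusted P = 3.14e-08, and 3.59 with library totals).

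Of the 8 thick filament and M-line genes 5 fell, none rose and 3 did not pass (median -1.37), while with library totals 4 fell and 3 rose. The largest fall was that of fln (Flightin), a thick filament protein of the IFM (-3.77, SE 0.14, adjusted P = 1.40e-08 by edgeR, and -2.44 with library totals). mask and ball encode partners of the Obscurin kinase domains. mask had 28996, 23245 and 23681 counts with UAS-Antp, against 16635, 13022 and 13034 with UAS-GFP, a log2 fold change of -0.77 (adjusted P = 0.000909 by edgeR) that turned to 0.54 with library totals and stayed under 0.001 in only 1 of the 6 fits with a library left out. That fit left out the UAS-Antp library of 69673609 counts (adjusted P = 0.000443), and the other 5 gave 0.00193 to 0.00385. ball had 375, 216 and 286 counts with UAS-Antp, against 18, 14 and 38 with UAS-GFP, a log2 fold change of 2.06 (SE 0.47; adjusted P = 0.00355 by edgeR) that did not pass. With library totals it lay at 3.38 (adjusted P = 5.24e-05).

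Of the 11 Z-disc genes 5 fell, 3 rose and 3 did not pass (median -0.23), and with library totals 3 fell and 7 rose. Zasp52, a PDZ and LIM domain protein that binds alpha-actinin, had the largest fall (-2.96, SE 0.15, adjusted P = 6.36e-08 by edgeR, and -1.64 with library totals). The muscle LIM protein gene Mlp84B had the largest rise, with 60211, 64361 and 54809 counts with UAS-Antp, against 97, 111 and 80 with UAS-GFP (7.65, SE 0.19, adjusted P = 1.52e-09, and 8.96 with library totals). sls, the member anchored in the Z-disc, lay between these.

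**Figure D5:**
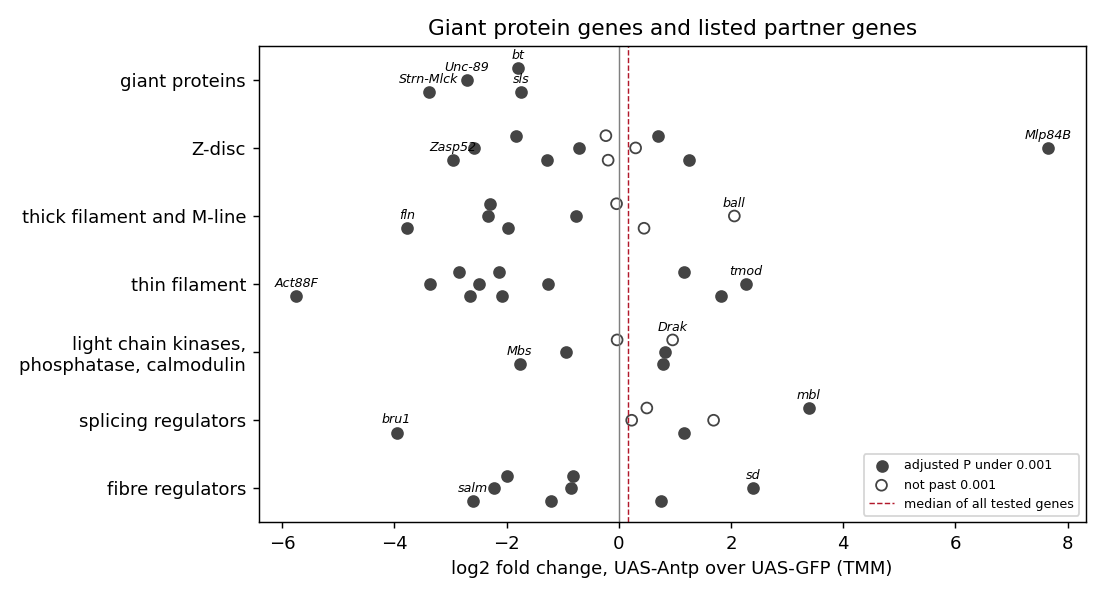
Log2 fold change, UAS-Antp over UAS-GFP, of the giant protein genes and of the 50 genes of 6 lists, with filled points at an adjusted P under 0.001 and the largest and smallest value of each list named. The dashed line is the median of all genes tested (0.17), and the giant protein genes lie between -3.39 (Strn-Mlck) and -1.74 (sls).

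Light chain phosphorylation genes were listed because Strn-Mlck was named for a myosin light chain kinase. Of these 6 genes 2 rose, 2 fell and 2 did not pass (median 0.38), and with library totals 4 rose and none fell. sqa, another gene of a myosin light chain kinase type, fell by 0.95 (log2 fold change -0.95, SE 0.09, adjusted P = 8.80e-06 by edgeR) but lay at 0.36 (adjusted P = 0.00771) with library totals. sqh, the nonmuscle myosin regulatory light chain, rose by 0.79 (SE 0.11, adjusted P = 0.000137), and by 2.11 with library totals. Mbs, the targeting subunit of myosin phosphatase, had the largest fall (-1.77, SE 0.10, adjusted P = 1.91e-07, against -0.45 with adjusted P = 0.00199 with library totals). flw, a catalytic subunit of that phosphatase, had the largest rise among those that passed with TMM (0.82, SE 0.11, adjusted P = 0.000128, and 2.14 with library totals), which missed 0.001 without UAS-GFP replicate 1 (0.00101) and without UAS-GFP replicate 2 (0.00112). Drak, a kinase of the same list, lay higher at 0.96 but did not pass with TMM (adjusted P = 0.00209 by edgeR), and passed with library totals (2.28, adjusted P = 1.99e-06).

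Among the 6 splicing regulators 2 rose, 1 fell and 3 did not pass (median 0.83), and with library totals 5 rose and 1 fell. bru1, which sets flight muscle splicing in the fly, fell to 23518, 19467 and 18163 counts with UAS-Antp, against 113267, 91840 and 107481 with UAS-GFP (log2 fold change -3.96, SE 0.15, adjusted P = 1.21e-08 by edgeR, and -2.65 with library totals). That was a larger fall than those of the 4 members, with no test of the difference. mbl, a Muscleblind splicing factor, had the largest rise (3.39, SE 0.19, adjusted P = 1.36e-07, and 4.70 with library totals). Rbfox1, also a muscle splicing factor, did not pass at a log2 fold change of 0.50 (adjusted P = 0.0122), and lay at 1.82 (adjusted P = 4.28e-07) with library totals.

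Of the 8 fibre regulators 6 fell and 2 rose (median -1.03), and with library totals 3 fell and 2 rose. salm, the zinc finger factor that selects the fibrillar fate of flight muscle, had 7652, 7731 and 7224 counts with UAS-Antp, against 18055, 12495 and 14459 with UAS-GFP. This was the largest fall of the list (-2.60, SE 0.12, adjusted P = 3.14e-08 by edgeR, and -1.28 with library totals), close to the -2.71 of Unc-89. sd, a TEAD factor that acts with Vestigial, had the largest rise (2.39, SE 0.13, adjusted P = 9.10e-08, and 3.71 with library totals).

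The genes nearest to each member in pattern were found by the root mean square difference of centred log2 CPM over the 6 libraries, among 2706 genes of an average log2 CPM of at least 5. The genotype difference makes up most of such a pattern, so this describes fold changes of like size. sls and bt lay 0.062 apart, with no other gene nearer to either. Msp300, which encodes the giant nesprin that links nuclei to the cytoskeleton, came next for both (0.075 from sls and 0.091 from bt, log2 fold change -1.78), followed by fru, of a family of BTB zinc finger factors, and HDAC4, a histone deacetylase, for sls (0.104 and 0.109), and by CG11617 and Rim2, a mitochondrial nucleotide carrier, for bt (0.106 and 0.108). Unc-89 was nearest to MRP, a membrane transporter (0.063), ND-B18, a subunit of respiratory complex I (0.083), and salm (0.088). Strn-Mlck was nearest to Gyg, the glycogenin that starts glycogen synthesis (0.046), then to side, an immunoglobulin family cell surface protein (0.115), and sog, a secreted antagonist of BMP signals (0.121). The distance from Strn-Mlck to Unc-89 was 0.384, with 117 genes nearer to Strn-Mlck, and that to sls 0.836, with 617 genes nearer.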

How the data were processed

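The authors deposited 1 table of counts, whole numbers of reads per gene without normalization, for 17611 genes of FlyBase release 6.42 on dm6. The submitters' processing notes name bcl2fastq, Subread, featureCounts and DESeq2 1.34. The aligner is not given in the sources used here. A deposited comparison table holds fold changes and p-values, of which none were used, only its gene symbols (17581, with 30 from a gene name table). Libraries were made with a stranded kit and 15 PCR cycles, so counts are not independent molecules. Counts were even for 75.0% to 81.0% of genes with few counts, and both mates of a pair may have been counted. No per-sample column was left unused (0).

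Genes were kept with edgeR's filterByExpr (9546 genes, 99.98% of counts), scaled by TMM and tested with edgeR 4.0.16 quasi-likelihood (R 4.3.3), UAS-Antp over UAS-GFP with no covariates, with P values adjusted over all of them by Benjamini-Hochberg and called under 0.001. log2 CPM used a prior count of 2. Ratios were tested by exact permutation (scipy 1.17.1). The union exon length of each gene came with the deposited counts, and transcript lengths and codons came from Ensembl release 115. The code was tested on simulated data. Total counts per library ran from 63217976 to 77781458 with UAS-Antp and from 47460809 to 64485309 with UAS-GFP, so counting error of the members is small beside the spread between libraries.

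The members, gene lists and tests were chosen with earlier results of these data known. Named genes were the members, the ratio and binding partners, set regulators, the largest called rise and fall of each list, and the 3 nearest genes by pattern. Alternatives were other scalings, filters of none or of at least 50 counts in 3 libraries, DESeq2 1.42.0, limma 3.58.1, glmTreat beyond a log2 fold change of 1, a threshold of 0.05, counts divided by 2, and leaving out each library. No sequences were analysed here.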

Additional observations from a re-analysis of the deposited data

How the results depend on the processing

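The 4 members had negative log2 fold changes under every alternative run, and Unc-89 and Strn-Mlck passed 0.001 in 17 of 17 alternatives. sls and bt passed in 16 of 17. With library totals they had -0.43 and -0.49 on the log2 scale, and the genes past the threshold came to 5656 (4971 that rose and 685 that fell), against 3397 (1557 and 1840) with TMM. At a threshold of 0.05 there were 5807, and beyond a log2 fold change of 1 (glmTreat) there were 1694, of which 22 were listed partner genes, against 39 in the TMM fit. DESeq2 gave 4264 genes and limma voom 3188. With library totals the CPM per kilobase of sls, bt, Unc-89 and Strn-Mlck was 40.4, 101, 221 and 82.6 in UAS-Antp and 54.4, 142, 581 and 348 in UAS-GFP, and over the longest transcript Strn-Mlck had 66.9 in UAS-Antp and 704 in UAS-GFP, shifts that follow from the divisor. Leaving out 1 library gave 2758 to 3043 genes, 33 to 35 partner genes, and log2 ratio differences of -1.80 to -1.54 (Strn-Mlck to sls), -1.10 to -0.86 (Unc-89 to sls) and -0.10 to -0.03 (bt to sls). No paired analysis was possible because the labels number UAS-GFP and UAS-Antp samples without a shared number.

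With 3 libraries a group, each of pooled pupae, and with counts summed over transcripts, variation between animals and isoform use were not measured. The smallest exact p of a within-library ratio is 0.1.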
